A study of Mus musculus with 18 samples.

Results

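The interferon response and antigen presentation genes described here are B2m, Tap1, Psmb8, Psmb9, Irf7, Usp18, Oas1a, Ifit1 and Ifit3. They were found by gene symbol in the platform's annotation, which gave 9 of 16390 named genes, each with 1 of the array's 23473 probes. All 9 probes exceeded the blank spots on all 18 arrays and all were tested, among 22538 tested probes. RNA came from whole hippocampus of mice, with 1 single-colour array per animal. The wild-type group held 7 mice, and a second group held 7 mice with the AtrxΔE2 allele of Atrx, an X-linked chromatin remodeller gene. The last group, 4 AtrxΔE2 mice, received 5-aminolevulinic acid (5-ALA), the precursor of haem, daily by mouth (3 mg per kg) between postnatal days 30 and 90. No group is labelled as vehicle-treated or as wild type with 5-ALA, and the labels give no sex, strain or age at sampling and do not say whether the allele is carried in every cell.

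Interferons are signalling proteins, many of which cells release on sensing foreign or misplaced nucleic acid. They bind surface receptors, activate JAK kinases and STAT transcription factors, and raise a set of target genes through 2 kinds of DNA element, the interferon-stimulated response element (ISRE) and the gamma-activated site (GAS). Antigen presentation is among the processes they raise: the immunoproteasome cuts proteins into peptides, a transporter carries these into the endoplasmic reticulum, and MHC class I molecules show them at the cell surface. In brain, microglia and endothelial cells carry much of the MHC class I expression, and hippocampal neurons also express it.

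Promoter sequence is shown for genes whose start site region holds 1 of these elements, and for the Tap1 and Psmb9 pair, which share a start site region. RefSeq's GRCm38.p6 tables gave a promoter for 8 of the 9 genes and none was matched for Usp18. Each stretch is printed 5′ to 3′ on the gene's own strand, with motif matches in capitals. The ISRE was searched as GAAA, any 2 bases and GAAA, and the GAS as TTCNNNGAA, on both strands, in the 250 bases before each start site.
Ifit1, chr19:34640729-34640888, plus strand: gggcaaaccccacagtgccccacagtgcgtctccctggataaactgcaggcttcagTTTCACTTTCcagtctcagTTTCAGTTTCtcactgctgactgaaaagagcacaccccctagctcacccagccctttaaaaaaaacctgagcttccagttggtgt
Ifit3, chr19:34583369-34583428, plus strand: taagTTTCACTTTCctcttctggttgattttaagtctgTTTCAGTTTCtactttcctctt
Oas1a, chr5:120907526-120907685, minus strand: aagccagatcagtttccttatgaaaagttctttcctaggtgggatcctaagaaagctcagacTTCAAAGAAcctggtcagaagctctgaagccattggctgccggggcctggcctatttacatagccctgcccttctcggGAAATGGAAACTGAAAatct
B2m, chr2:122147527-122147686, plus strand: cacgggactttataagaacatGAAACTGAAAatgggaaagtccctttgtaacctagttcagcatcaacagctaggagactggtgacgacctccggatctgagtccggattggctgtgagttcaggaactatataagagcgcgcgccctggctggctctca
Psmb8, chr17:34198035-34198194, plus strand: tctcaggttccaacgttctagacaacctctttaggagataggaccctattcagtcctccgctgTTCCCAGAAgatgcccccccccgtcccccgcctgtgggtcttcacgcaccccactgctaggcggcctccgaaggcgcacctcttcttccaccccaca
Tap1 and Psmb9, chr17:34187331-34187555, plus strand: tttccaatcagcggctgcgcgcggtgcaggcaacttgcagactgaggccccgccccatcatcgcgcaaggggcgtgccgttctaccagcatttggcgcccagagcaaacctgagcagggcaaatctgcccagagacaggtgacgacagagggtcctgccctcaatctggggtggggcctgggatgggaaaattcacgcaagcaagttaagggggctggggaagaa

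Ifit1 and Ifit3 each held 2 ISRE matches, both read on the opposite strand, and their letters were the same in both genes. Oas1a held 2 overlapping ISRE matches within 20 bases of its start site and 1 GAS match. B2m held 1 ISRE match and Psmb8 held 1 GAS match, and no ISRE match overlapped a GAS match. The stretch labelled Tap1 and Psmb9 is the whole 225 bases between their start sites, from which Tap1 runs to the right and Psmb9 to the left. Neither motif's letters were in the 250-base windows of Tap1, Psmb9 or Irf7. ISRE letters were in 4 of the 8 promoters, and GAS letters in 2. Over all 32851 mouse promoters of the table, 2.98% held the ISRE letters and 7.02% the GAS letters. Counted by gene, the shares were 3.46% and 8.13% of 27025 genes. Of 60 other interferon-stimulated genes listed for comparison, 47 had a promoter, and 21 of these held the ISRE letters and 8 the GAS letters.

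The arrays' identifiers fell into 2 series that also differed in tissue content, so groups were compared within a series. Series A held 3 wild-type and 3 AtrxΔE2 arrays, and series B held 4 wild-type, 4 AtrxΔE2 and all 4 5-ALA arrays. The 10 tested hippocampal neuron markers exceeded the blank spots on all 18 arrays. Summed choroid plexus markers lay between 46.9 and 110.5 on series A arrays and from 24798 to 35767 on those of series B, on the authors' normalized scale, which sets each array's median at 25. In series B the blank spots averaged 55.3 to 56.6 intensity units on wild-type arrays, 59.3 to 61.6 on AtrxΔE2 arrays and 61.9 to 63.2 on 5-ALA arrays, so the level of the blank spots separated the 3 groups. Over all tested probes, 5-ALA arrays 1 and 2 deviated together from their group mean (r = 0.454), as did 5-ALA arrays 3 and 4 (r = 0.425), and, less strongly, AtrxΔE2 arrays 4 and 5 (r = 0.186) and 6 and 7 (r = 0.247). The consecutive wild-type pairs had r of -0.201 and 0.020, and the non-consecutive pairs within series B groups ranged from -0.772 to -0.264. Subtracting a mean of 4 arrays pushes r below 0, and both wild-type pairs also lay above every non-consecutive pair. The Atrx probe read between 16.3 and 22.9 on series B wild-type arrays, between 7.6 and 14.2 on AtrxΔE2 arrays with a usable spot, and between 5.5 and 11.0 on 5-ALA arrays. The sources used here do not place this probe inside or outside the deletion, so it does not check the labels.

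To ask how treatment altered these genes, the next comparison set the 4 5-ALA arrays against the 4 untreated AtrxΔE2 arrays of series B. Psmb8, B2m, Usp18 and Irf7 fell after 5-ALA, and the log2 difference of each of the 9 genes lay below 0. With consecutive arrays of series B as a random block (estimated correlation 0.339), Usp18 alone was called, and Psmb8, B2m and Irf7 had limma adjusted p values of 0.0522, 0.0716 and 0.147; with these pairs averaged, 0 of the 9 were called. The 4 of 9 called lower (limma, p adjusted by Benjamini-Hochberg across the tested probes, under 0.05) compare with 3.26% of all tested probes called lower. The 9 genes and the lists used below were chosen with earlier results of these data known. Shares set beside those of all probes therefore describe these genes and do not test them as a set. Values below 0 were found for 50.4% of all probes. The median log2 difference of the 9 was -0.16, against -0.00041 for all tested probes, and single genes ranged from -0.57 for Psmb8 to -0.02 for Ifit1. At an unadjusted p under 0.05, 7 of the 9 were lower, against 11.2% of all tested probes, and 5 of the 9 were lower without overlap of the fitted values, against 5.79%. The log2 differences come from corrected intensities to which 50 was added, so changes of dim genes are understated. The values quoted per array, and the ratios of means, are on the authors' scale. In bulk tissue, fewer cells of a type and less RNA per cell cannot be told apart.

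B2m encodes beta-2-microglobulin, the light chain of every MHC class I molecule. It read 1302.3, 1491.3, 1181.7 and 1278.8 on the 4 AtrxΔE2 arrays of series B and 1026.8, 837.1, 932.1 and 1018.9 on the 4 5-ALA arrays. All 5-ALA arrays lay below all AtrxΔE2 arrays, and the mean stood at 0.726 of the untreated level. B2m fell by 0.44 on the log2 scale (SE 0.0975, n = 4 per group, limma adjusted p 0.0178). The call was lost without AtrxΔE2 array 5 (limma adjusted p 0.0523) and without 5-ALA array 2 (0.0557). The chains that pair with it, H2-K1 and H2-D1, were not analysed here.

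Tap1 encodes 1 subunit of the peptide transporter that loads MHC class I molecules. Its values were 9.8, 9.3, 7.0 and 9.2 without treatment and 7.1, 7.6, 7.9 and 6.5 after 5-ALA, so the groups overlapped. The log2 difference was -0.04 (SE 0.0316, limma adjusted p 0.528). Tap2, its partner subunit, stood at -0.01 (limma adjusted p 0.953), and tapasin, Tapbp, which bridges the transporter to MHC class I, at -0.03 (limma adjusted p 0.794).

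Psmb8 encodes a catalytic subunit that replaces the constitutive subunit Psmb5 in the immunoproteasome. It read 64.0, 64.9, 65.7 and 61.2 on AtrxΔE2 arrays and 50.8, 26.2, 35.7 and 32.7 on 5-ALA arrays, with no overlap. The untreated arrays lay within a narrow range, and 5-ALA array 1 was the highest of the treated arrays. Psmb8 fell by 0.57 on the log2 scale (SE 0.109, n = 4 per group, limma adjusted p 0.00845), to 0.568 of the untreated mean, and kept its call without any 1 array. Psmb9, which replaces Psmb6, read 23.1, 25.3, 16.8 and 22.2 without treatment and 17.5, 15.8, 15.5 and 15.7 after 5-ALA. Only AtrxΔE2 array 6 and 5-ALA array 1 crossed, and the log2 difference of -0.16 (SE 0.0588) was not called (limma adjusted p 0.118).

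Psmb10, the other inducible catalytic subunit, stood at -0.31 and was not called (limma adjusted p 0.265). Of its constitutive counterparts, Psmb7 fell by 0.27 (limma adjusted p 0.0246), Psmb5 rose by 0.14 (0.0426), and Psmb6 stood at 0.03 (0.730). On the authors' values Psmb5 lay between 1645.8 and 1759.2 on AtrxΔE2 arrays and between 1776.6 and 1922.7 on 5-ALA arrays. Its call was lost in 12 of 18 fits that each left out 1 array (limma adjusted p up to 0.117). The Psmb7 call was lost in 4, without AtrxΔE2 array 4 or 6 or 5-ALA array 1 or 2 (up to 0.0742). No other of the 6 measured constitutive subunit genes was called.

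Irf7 encodes a transcription factor that amplifies the type I interferon response. It read 16.5, 18, 13.1 and 16.4 on AtrxΔE2 arrays of series B and 10.6, 11.2, 11.3 and 14.2 on 5-ALA arrays. AtrxΔE2 array 6 lay below 5-ALA array 4, and the other arrays separated. Irf7 fell by 0.12 on the log2 scale (SE 0.0335, n = 4 per group, limma adjusted p 0.0386), to 0.739 of the untreated mean. This call was lost in 7 of 18 fits that left out 1 array: without AtrxΔE2 array 1, 4, 5 or 7 (limma adjusted p 0.05001, 0.0806, 0.102 and 0.0927) and without 5-ALA array 1, 2 or 3 (0.122, 0.0903 and 0.0627).

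Usp18 encodes a protease that removes the ubiquitin-like modifier ISG15 and restrains interferon receptor signalling. Its 4 AtrxΔE2 values of series B were 25.4, 26.6, 19.6 and 19.5, and its 4 5-ALA values were 13.4, 12.3, 14 and 14.5. The treated arrays lay close together and below every untreated one. Usp18 fell by 0.28 on the log2 scale (SE 0.0571, n = 4 per group, limma adjusted p 0.0110), to 0.595 of the untreated mean, and kept its call without any 1 array.

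Oas1a encodes an oligoadenylate synthetase, an enzyme that answers double-stranded RNA. It read 10.8, 9.1, 7.2 and 7.4 without treatment and 5.6, 5.3, 5.4 and 8.6 after 5-ALA. The last of these, 5-ALA array 4, stood apart from the other treated arrays and above the 2 lower AtrxΔE2 arrays. The log2 difference was -0.08 (SE 0.0342, limma adjusted p 0.191), and it was called only without that array (-0.11, limma adjusted p 0.0493).

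Ifit1 and Ifit3 encode members of a family of antiviral RNA-binding proteins. Ifit3 read 21.7, 22.7, 20.6 and 23.7 on AtrxΔE2 arrays and 5.6, 6.0, 15.6 and 13.4 on 5-ALA arrays. All treated arrays lay below the untreated ones but formed a lower pair, arrays 1 and 2, and a higher pair, arrays 3 and 4. With a mean at 0.458 of the untreated level, Ifit3 had the lowest ratio of the 9 genes, yet its log2 difference of -0.40 (SE 0.134) was not called (limma adjusted p 0.0847). It was called without 5-ALA array 3 (limma adjusted p 0.0481), with series B normalized alone (0.0402) and on the authors' values with 8 added before the logarithm (0.0354). Ifit1 read 3.9, 3.4, 4.3 and 3.8 without treatment and 3.2, 2.5, 3.4 and 3.1 after 5-ALA, at a log2 difference of -0.02 (limma adjusted p 0.690). Its lowest array lay 2.75 SDs of the blank spots above their mean, so little of a change at this level could be seen. The Ifit genes, and Oas1a with its neighbours in the Oas cluster, are close relatives, and their probes may read more than 1 family member.

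**Figure D1:**
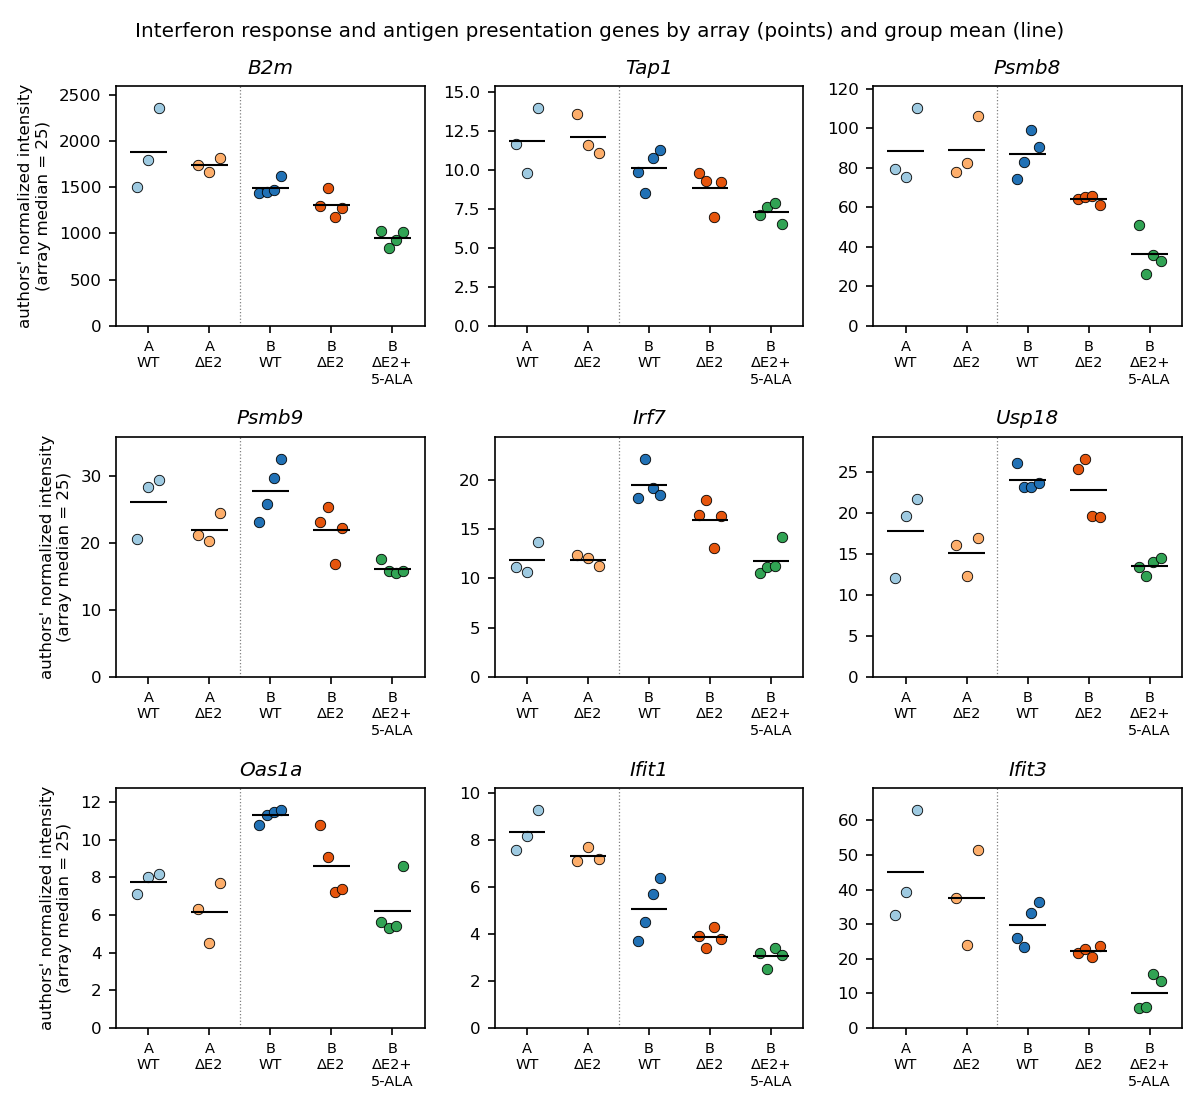
The authors' normalized intensity (array median 25) of the 9 genes on each array, with 1 panel per gene, 1 point per array and a line at each group mean; A and B are the array series, WT is wild type and ΔE2 is AtrxΔE2. In series B every group mean steps down from wild type to AtrxΔE2 to 5-ALA, and the 5-ALA points of B2m, Psmb8, Usp18 and Ifit3 lie below all AtrxΔE2 points. On this scale the median log2 difference of all probes was also below 0 at both steps.

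The genotype comparison asked whether untreated AtrxΔE2 mice differed from wild type, and limma called 0 of the 9 genes in either series. In series B each of the 9 log2 differences lay below 0, with a median of -0.09 against 0.0024 for all tested probes, and 48.1% of all tested probes lay below 0. At an unadjusted p under 0.05, 4 of the 9 were lower, where 7.89% of all tested probes were, and 2.41% of all tested probes were called in either direction after adjustment. Irf7 read 18.2, 22.2, 19.2 and 18.5 in series B wild type, above all 4 AtrxΔE2 arrays, but its log2 difference of -0.09 (SE 0.0335) was not called (limma adjusted p 0.164). Psmb8 read 74.4, 82.9, 99.2 and 90.5 in wild type, again above all AtrxΔE2 arrays, at a log2 difference of -0.28 (SE 0.109, limma adjusted p 0.203). These 2 were the genes without overlap, and 5.74% of all tested probes were lower without overlap. Oas1a wild-type values of 10.8, 11.3, 11.5 and 11.6 touched the highest AtrxΔE2 array (log2 difference -0.08, limma adjusted p 0.227). The other 6 genes overlapped, with log2 differences from -0.18 for Ifit3 (limma adjusted p 0.544) to -0.01 for Usp18 (0.967).

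Series A gave 6 of 9 log2 differences below 0, against 50.8% of all tested probes, with limma adjusted p values that rounded to 1.00 for each gene. B2m there read 1505.7, 1793.0 and 2364.2 in wild type and 1744.1, 1670.8 and 1822.0 in AtrxΔE2. Psmb8 read 79.3, 75.2 and 110.3 against 77.7, 82.4 and 106.2, and Ifit3 read 32.5, 39.3 and 63.1 against 37.6, 23.9 and 51.4. Wild-type array 3 was the highest of its group for all 9 genes. None of the 9 was separated between the genotypes, where 3.84% of all tested probes were lower without overlap and 0.00887% were called. At an unadjusted p under 0.05, 0 of the 9 were lower there, against 1.42% of all tested probes. The series did not differ detectably in the genotype effect on any of the 9 (limma adjusted p of the difference from 0.572 upward), and 0.102% of all tested probes differed. At an unadjusted p under 0.05 this difference was negative for 0 of the 9 and for 4.31% of all tested probes. Averaged over both series, 9 of 9 log2 differences lay below 0 (49.2% of all tested probes did). Of the 9, 0 were called (limma adjusted p from 0.341 upward), against 0.444% of all tested probes. An unadjusted p under 0.05 was found for 2, Oas1a and Psmb9, as for 4.47% of all tested probes in that direction. Of 98 further pathway genes described below, 50 lay below 0 in series B and 44 over both series, so the wider pathway did not share this direction. Psmb10 stood at 0.37 over both series and was not called (limma adjusted p 0.286).

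Set against wild type within series B, the 5-ALA arrays were lower for 7 of the 9 genes, and 4.87% of all tested probes were called lower. This comparison shares its 5-ALA arrays with the treatment comparison and its wild-type arrays with the genotype comparison, so the 3 are not independent. Psmb8 fell by 0.85 on the log2 scale (SE 0.109, n = 4 per group, limma adjusted p 0.0010), to 0.419 of wild type. Ifit3 fell by 0.58 (SE 0.134, limma adjusted p 0.0155), to 0.341 of wild type, and B2m fell by 0.57 (SE 0.0975, limma adjusted p 0.00374), to 0.637. Psmb9 fell by 0.29, Usp18 by 0.29, Irf7 by 0.22 and Oas1a by 0.16 (limma adjusted p from 0.00232 to 0.0102). The wild-type values of Ifit3 were 26.1, 23.4, 33.2 and 36.5, and those of Usp18 were 26.1, 23.1, 23.2 and 23.7, all above every 5-ALA array.

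Tap1 at -0.07 and Ifit1 at -0.06 were not called against wild type (limma adjusted p 0.175 and 0.167). On the fitted scale, all 5-ALA arrays lay below all wild-type arrays for 7 of the 9 genes, where 7.67% of all tested probes were lower without overlap. On the authors' values this held for each of the 9 genes, but the share of all probes on that scale was not counted. The authors' scale shifted the median of all probes in this comparison by -0.10 (log2 of value plus 1). The Ifit3 call was lost without 5-ALA array 2 (limma adjusted p 0.0542), and the other 6 calls were kept without any 1 array. All 7 were called with consecutive pairs as a random block, and 0 with these pairs averaged. When the fit also carried each array's blank spot level, none of the 7 was called (limma adjusted p from 0.274 for Psmb8, whose log2 difference was then -0.997), and 2 of all tested probes were.

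**Figure D2:**
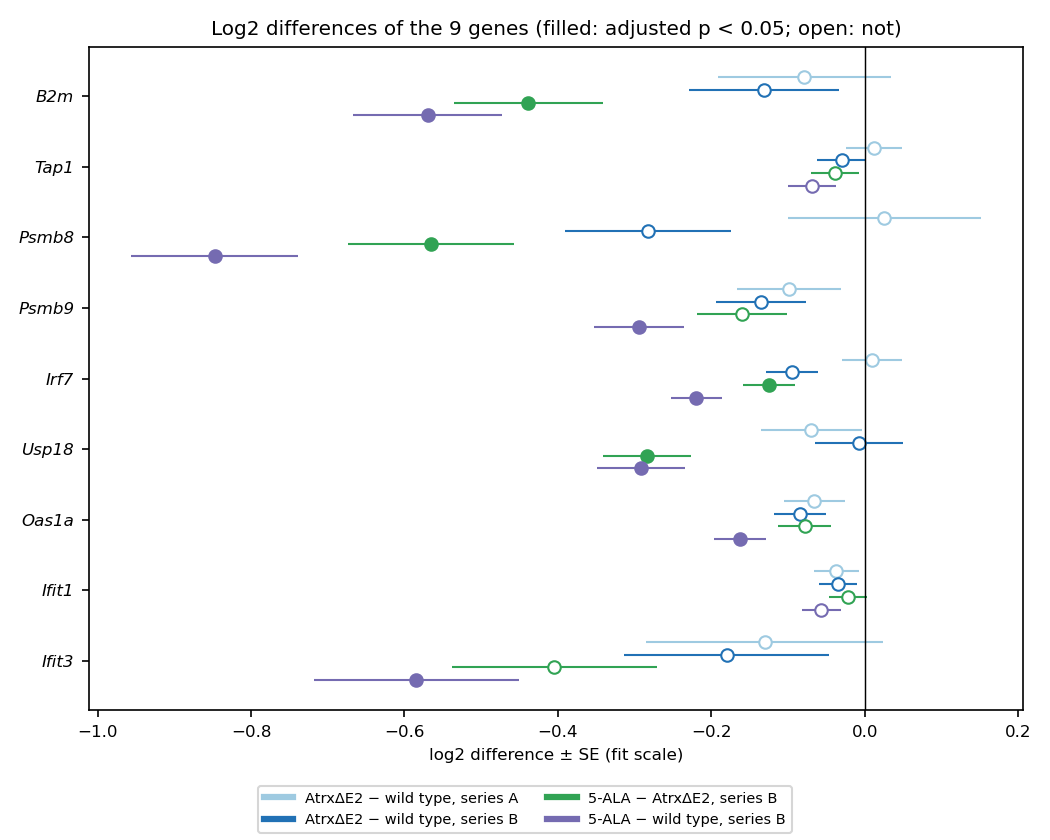
Log2 difference with its SE for each of the 9 genes in 4 comparisons, from the fit to all 18 arrays; filled points had an adjusted p under 0.05. The 5-ALA differences reach -0.57 against AtrxΔE2 and -0.85 against wild type for Psmb8, while Tap1 and Ifit1 stay close to 0 in every comparison.

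In series B, wild type was highest, AtrxΔE2 came next and 5-ALA was lowest for the mean of each of the 9 genes on the authors' values. On that scale all probes also shifted down, with a median log2 difference (value plus 1) of -0.07 at the first step and -0.04 at the second. The share of all probes with this order was not counted. On the fitted scale, all 9 log2 differences lay below 0 at both steps as well. For Usp18 the first step was from 24.0 ± 1.41 to 22.8 ± 3.76 and the second to 13.6 ± 0.947 (SD, n = 4 each). For Psmb8 the means were 86.8 ± 10.6, 64.0 ± 1.96 and 36.4 ± 10.4, and for B2m they were 1497 ± 88.3, 1314 ± 130 and 954 ± 88.8. Usp18 thus differed by less than its spread between the genotypes and separated only with treatment, whereas Psmb8 separated at both steps. Irf7 means were 19.5 ± 1.83, 16 ± 2.07 and 11.8 ± 1.61, with overlap at the second step only.

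Other genes of the pathway were also compared after 5-ALA. Of 145 further genes listed for antigen presentation, interferon ligands, receptors, signalling, nucleic acid sensing and interferon targets, 98 were tested. Of these 8 fell and 3 rose, and 65 of 98 log2 differences lay below 0, with a median of -0.03. Among all tested probes 3.49% were called higher and 3.26% lower, so the 3 rises are no larger a share than the background. With consecutive series B pairs as a random block 1 fell and 1 rose, both receptor or signalling genes. In that fit 190 of all 22538 tested probes fell and 181 rose. With averaged pairs 0 of the 98 did either, where 13 and 10 of all tested probes did. With arrays scaled to their median, which moved the median of all probes to 0.03, 5 fell, 1 rose and 52 of 98 lay below 0. Of all tested probes, 532 fell and 441 rose with that scaling. Without 5-ALA arrays 1 and 2, 3 fell and 0 rose, where 222 and 211 of all 22538 tested probes did. Without 5-ALA arrays 3 and 4 instead, 6 fell and 10 rose, where 1938 and 2225 of all 22538 tested probes did. The counts of falls and rises thus depended on which 5-ALA arrays were kept, as did those of all tested probes. The 18 fits without 1 array gave 4 to 9 falls and 2 to 4 rises.

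Among receptors and signalling genes, Ifngr1, which binds interferon gamma, fell by 0.30 (SE 0.0540, limma adjusted p 0.00592). Its values were 84.3 to 101.7 on AtrxΔE2 arrays and 67.4 to 79.7 on 5-ALA arrays, without overlap. The partner receptor gene Ifngr2 fell by 0.40 (limma adjusted p 0.0497), and this call was lost in 16 of 18 fits without 1 array. Jak1, the kinase shared by the interferon receptors, rose by 0.32 (limma adjusted p 0.00378), from 345.0 to 372.7 without treatment to 403.0 to 524.9 with it. Stat2, Irf1 and Irf9 stood at 0.22, 0.03 and -0.05 and were not called.

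Nlrc5, the transactivator of MHC class I genes, fell by 0.13 (limma adjusted p 0.0136), from 17.2 to 20.1 on AtrxΔE2 arrays to 13.5 to 15.0 on 5-ALA arrays. Canx, an endoplasmic reticulum chaperone for newly made class I chains and many other glycoproteins, rose by 0.38 (limma adjusted p 0.0131), from 473.7 to 554.0 to 639.5 to 754.9. Those 2 were the calls among 10 tested class I genes. Of the 3 tested MHC class II genes, 0 were called; the invariant chain gene Cd74 stood at -0.48 (limma adjusted p 0.0781) and H2-Aa at -0.50 (0.138). Trex1, a nuclease that clears cytosolic DNA, fell by 0.26 (limma adjusted p 0.00915), and Tbk1, a kinase upstream of interferon production, rose by 0.21 (0.0426), a call lost in 14 of 18 fits without 1 array. Of the 6 tested interferon genes 0 were called, with Ifnb1 at 0.01 and Ifng at 0.01.

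Of 46 other interferon-stimulated genes, 40 had log2 differences below 0 after 5-ALA, and 31 did with arrays scaled to their median; the median as reported was -0.05. As reported 4 of the 46 fell (2 with that scaling): Lgals3bp by 0.58 (limma adjusted p 0.0121), Rtp4 by 0.28 (0.0209), Gbp4 by 0.15 (0.0392) and Oasl1 by 0.08 (0.0420). Lgals3bp encodes a secreted glycoprotein and read 117.0 to 128.9 without treatment and 59.5 to 89.0 with it. Its call was kept without any 1 array, as were those of Nlrc5, Ifngr1, Trex1, Canx and Jak1. Without both 5-ALA arrays 1 and 2, however, only Trex1 of these 6 was called (limma adjusted p 0.0343); Jak1 (0.0551), Lgals3bp (0.0577), Nlrc5 (0.0614), Ifngr1 (0.0709) and Canx (0.133) were not. With consecutive pairs as a random block, Lgals3bp, Nlrc5, Trex1 and Canx were not called. The Rtp4 call was lost without AtrxΔE2 array 7 or 5-ALA array 1 or 2 (limma adjusted p up to 0.0687), and those of Gbp4 and Oasl1 in 8 and 12 fits. Ifit2, the neighbour of Ifit1 and Ifit3 in the family, stood at -0.07 (limma adjusted p 0.377), and Isg15 was not analysed here.

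Against wild type, 12 of the 98 were lower and 3 higher on 5-ALA arrays, against 4.87% and 5.49% of all tested probes. Leaving out 1 array gave 7 to 14 lower and 1 to 6 higher. Consecutive pairs as a random block gave 4 and 1, where 333 and 366 of all 22538 tested probes were called. Averaged pairs gave 0 of either, where 8 and 7 of all tested probes were called. Ifngr1 fell by 0.38 (limma adjusted p 0.00170), the chemokine gene Cxcl10 by 0.42 (0.00286) and the guanylate-binding protein gene Gbp2 by 0.46 (0.0123). Cxcl10 read 14.6 to 20.2 on wild-type arrays, 8.4 to 11.2 on AtrxΔE2 arrays and 4.0 to 6.2 on 5-ALA arrays, 3 ranges without overlap. Its genotype step of -0.24 was not called (limma adjusted p 0.0832), nor was its step from AtrxΔE2 to 5-ALA. The others that fell were Calr, Socs1, Irf9, Trex1, Gbp4, Ccl5, Lgals3bp, Oasl2 and Rtp4, and Canx, Jak1 and Ticam1 rose. Of the 18 fits without 1 array, the call was lost in 13 for Rtp4, 7 for Irf9, 6 for Calr, 5 each for Lgals3bp and Oasl2, 4 for Socs1, 3 for Jak1 and 2 for Ticam1, and in none for the others named here. Without 5-ALA arrays 1 and 2, 5 fell and 0 rose, where 247 and 195 of all 22538 tested probes did. Without 5-ALA arrays 3 and 4 instead, 13 fell and 8 rose, where 2537 and 2754 of all 22538 tested probes did. On the authors' values with 8 added, 30 of 96 fell and 2 rose, where 2489 and 616 of all 21154 probes fitted did. On that scale the median log2 difference of all probes was -0.07. For the genotype in series B the only call of the 98 was Calr, a class I chaperone, which fell by 0.29 (limma adjusted p 0.0275). That call was lost in 6 of 18 fits without 1 array (limma adjusted p up to 0.0965), and none of the 98 was called in series A.

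**Figure D3:**
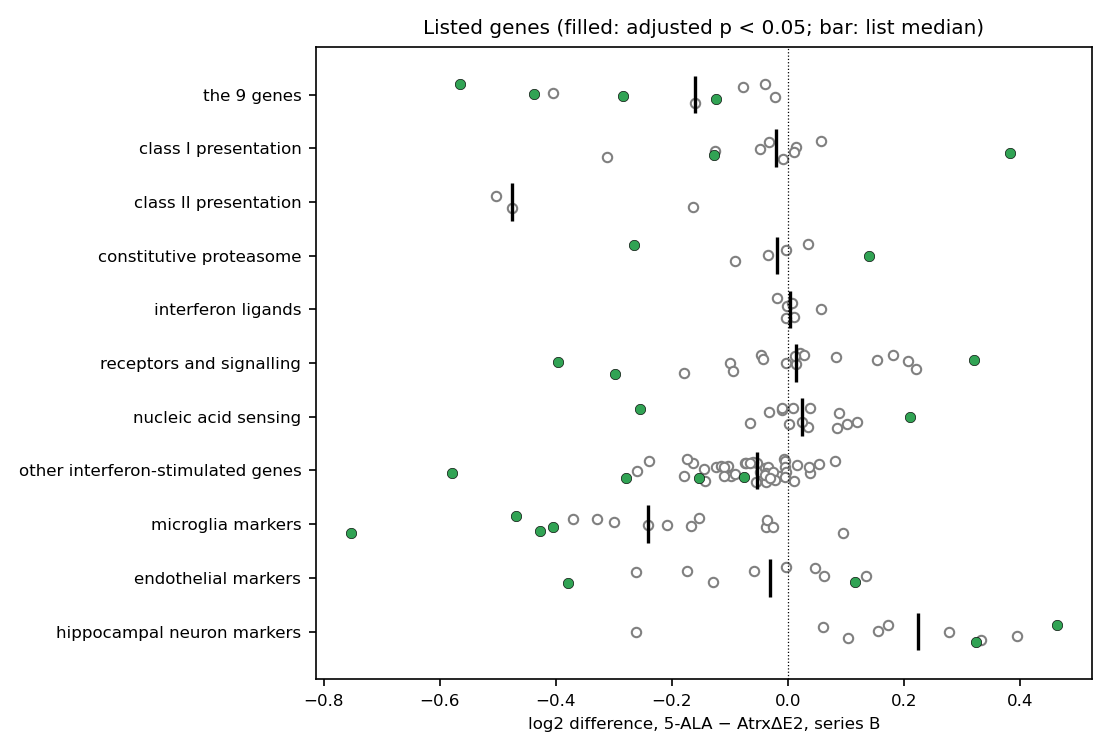
Log2 difference of every tested gene of 11 lists, 5-ALA minus AtrxΔE2 in series B; each point is a gene, filled where the adjusted p was under 0.05, and the bar is the list's median. The medians are -0.16 for the 9 genes, -0.05 for other interferon-stimulated genes and -0.24 for microglia markers.

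Markers of several cell types moved with the 5-ALA arrays. Of 15 microglia markers, 4 fell and 14 lay below 0, with a median of -0.24; the 4 were Ctss (-0.75), C1qa (-0.47), Cd68 (-0.43) and C1qc (-0.40). The summed level of the 15 was 2478.5 to 2946.5 on wild-type, 2231.0 to 2828.5 on AtrxΔE2 and 1920.9 to 2024.2 on 5-ALA arrays. Of the defining markers, Cx3cr1 stood at -0.15, P2ry12 at -0.33 and Tmem119 at 0.09. None of them was called against AtrxΔE2 and none was at 0. C1qa lost its call without 5-ALA array 1 (limma adjusted p 0.0631) and C1qc in 8 of 18 fits, and without 5-ALA arrays 1 and 2 the number of microglia markers that fell was 2. Against wild type, 7 of the 15 were lower on 5-ALA arrays, where 4.87% of all tested probes were called lower. Leaving out 1 array gave 3 to 7. P2ry12 was among the 7, at -0.56 (limma adjusted p 0.0344), a call lost in 5 of 18 fits without 1 array. Cx3cr1 and Tmem119 were not called there. The part of microglia in the fall of the 9 genes was not tested.

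Choroid plexus markers fell in 5 of 8 cases, and their summed level was 30443 to 35767 on AtrxΔE2 arrays and 28309 to 31793 on 5-ALA arrays. Oligodendrocyte markers summed to 12103.6 to 12755.6 without treatment and 7699.4 to 10228.6 with it, and 1 of 6, Mbp, fell; leaving out 1 array gave 0 to 3, and the Mbp call was lost in 6 of 18 fits (limma adjusted p up to 0.113). The lymphocyte markers Cd3e and Cd3g were not detected on any 5-ALA array in the authors' table, and 1 of 7, Cd4, fell, a call lost without AtrxΔE2 array 6 or 7 or 5-ALA array 2 (up to 0.0527). Their summed level was 40.5 to 48.6 on AtrxΔE2 and 30.4 to 36.7 on 5-ALA arrays. Monocyte and granulocyte markers (0 of 6 called, 53.3 to 65.1 against 42.1 to 51.0) and red cell markers (0 of 2, 25.8 to 31.9 against 20.5 to 25.5) were also lower without overlap. These 3 sums are dim: 4 of 7 lymphocyte, 5 of 6 monocyte and granulocyte and 1 of 2 red cell markers exceeded the blank spots on all 18 arrays. The authors' table lacked 22, 9 and 10 of their values, and a missing value may lower a sum. The 2 red cell markers tested were Alas2 and Slc4a1. Endothelial sums overlapped (1360.4 to 1547.3 against 1268.8 to 1549.6), with Cldn5 lower (-0.38) and Tek higher (0.12, a call lost in 13 of 18 fits without 1 array, limma adjusted p up to 0.148), as did meningeal sums (375.9 to 604.8 against 377.5 to 422.7, 0 of 8 called).

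Astrocyte sums were 5640.8 to 6110.3 on AtrxΔE2 and 6210.1 to 6537.7 on 5-ALA arrays, with 0 of 8 called, and 2 of 10 hippocampal neuron markers rose (Grin1 by 0.46 and Fibcd1 by 0.32). The part of these cell types and of the level of the blank spots in the fall of the 9 genes was not tested beyond 1 fit. When the fit also carried the blank spot level, Psmb8 alone of the 9 was called after 5-ALA; B2m (limma adjusted p 0.103), Usp18 (0.0727) and Irf7 (0.169) were not. Their log2 differences in that fit were -0.36, -0.24 and -0.10, against -0.44, -0.28 and -0.12 as reported.

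**Figure D4:**
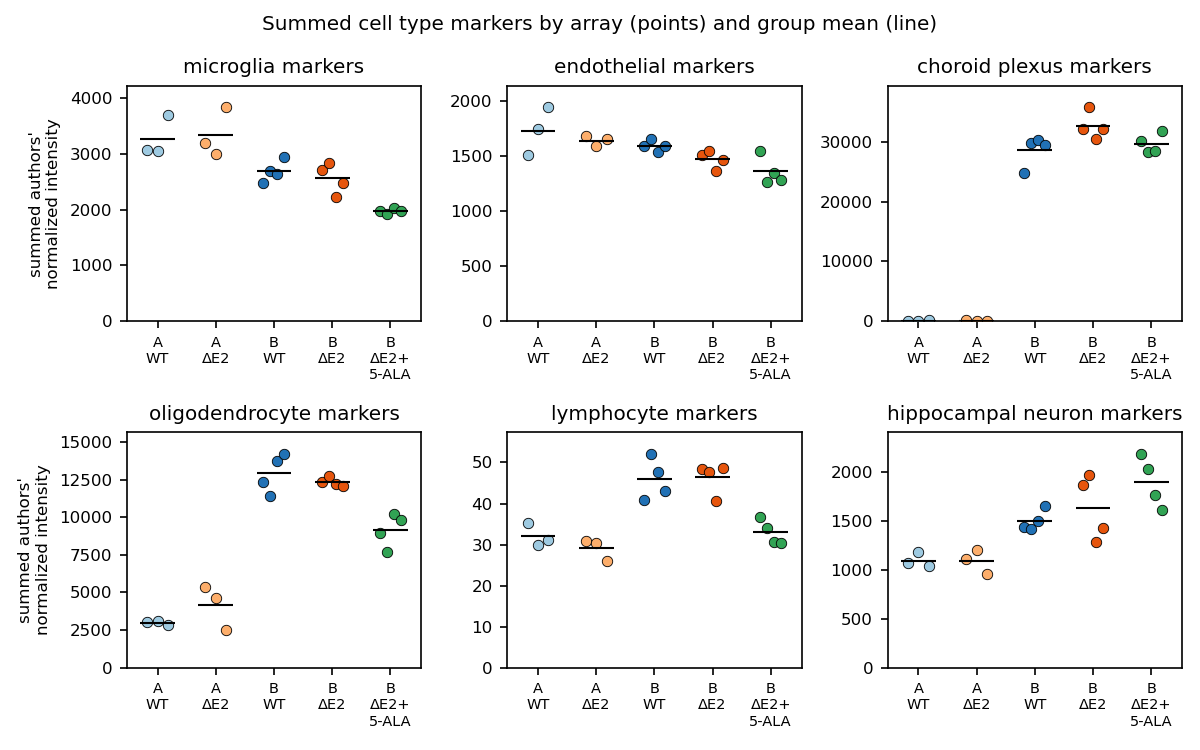
Summed authors' normalized intensity of the markers of 6 cell types on each array, with 1 point per array and a line at each group mean. Microglia, oligodendrocyte and lymphocyte sums of the 5-ALA arrays lie below those of all other series B arrays, and choroid plexus sums are near 0 in series A.

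Across the 12 series B arrays, the 36 pairs among the 9 genes had correlations of log2 values from 0.315 to 0.936, with a median of 0.775, and across the 6 series A arrays from -0.219 to 0.939, with a median of 0.508. The arrays of 3 groups enter the first of these, so group differences are part of it. The 5 named probes most like B2m over series B were those of Ifngr1 (r = 0.972), Pmp22, Zfp110, C1qtnf2 and Serpind1 (0.949). Over series A the same probes had r from -0.393 for Zfp110 to 0.866 for Ifngr1. Those most like Irf7 in series B were Ppcs (r = 0.939), Ifi209, H2bc1, Fgr and Krt75 (0.923), and over series A their r ranged from -0.386 for Ifi209 to 0.637 for Fgr. These are descriptions over 12 and 6 arrays that share their processing.

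**Figure D5:**
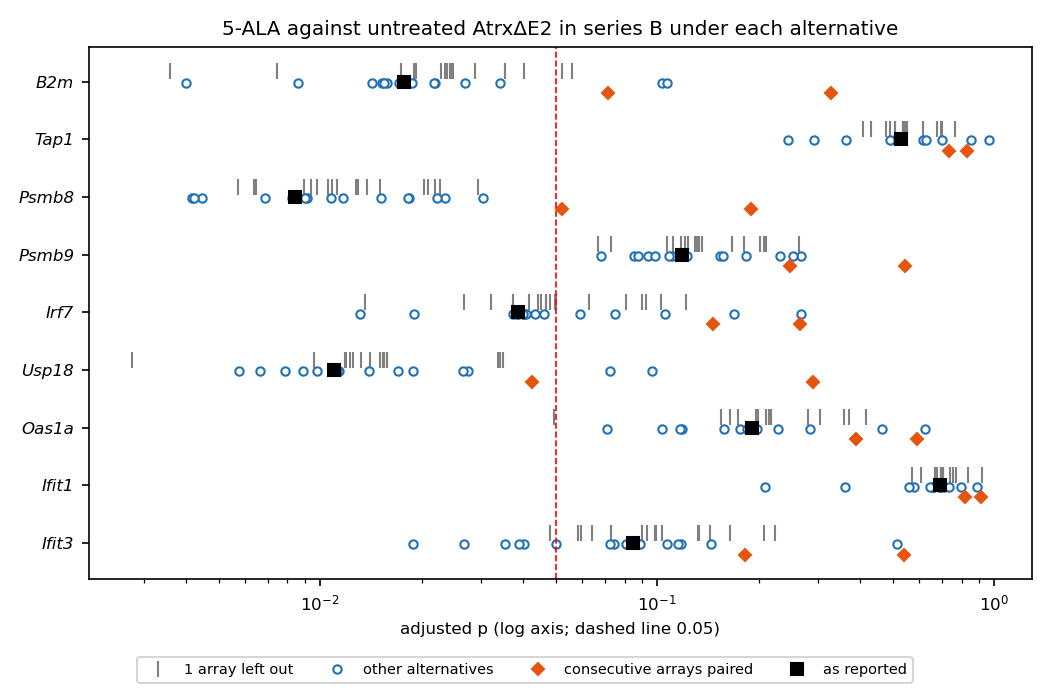
Adjusted p of each of the 9 genes for 5-ALA minus AtrxΔE2 in series B, on a log axis, as reported (square), with 1 array left out (ticks), with consecutive arrays of series B paired (diamonds) and under the other alternatives (circles); the dashed line marks 0.05. Psmb8 and Usp18 stay under it without any 1 array, and Usp18 alone stays under it in 1 of the 2 paired fits.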

How the data were processed

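Single-colour arrays of hippocampal RNA from 18 mice were used, 1 per mouse by the labels' counts. Scans at 3 gains were combined for each array, per the file headers, and a spot's deposited value is its median intensity at 635 nm. A deposited table of the authors' normalized intensity, with a median of 25 on every array, supplied the levels in the text; how it was made is not given in the sources used here. The members and lists were chosen with earlier results of these data known. From the spots, limma 3.58.1 in R 4.3.3 applied normexp (offset 50), spots of a probe were averaged as log2, and quantile normalization followed. A probe was tested if 4 or more arrays read it above the blank spots' 95th percentile (22538 were, 935 were not). One linear model with 5 cells, array series by group, gave moderated two-sided tests, with Benjamini-Hochberg adjustment over all tested probes and calls under 0.05. The fit was checked on simulated data with noise independent between arrays, so that check does not cover arrays that deviate in pairs. The number of arrays limits precision.

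Symbols came from the platform annotation, updated through RefSeq (GRCm38.p6). All 9 genes are named in every comparison, with up to 8 called genes per list or else the 2 of smallest p, a set of core pathway genes, and the first 3 measured of each marker list. A listed gene is its tested probe of highest mean. Likeness used Pearson's r of log2 values. Alternatives changed the model, background correction, normalization, values, filter, prior, weights, threshold and arrays, treated consecutive series B arrays as pairs, and added the blank level or the replicate number; leaving out 5-ALA arrays 1 and 2 or 3 and 4 was chosen after seeing the data. Same-numbered arrays correlated in their deviations between -0.138 and 0.508, so the numbers were not taken to pair mice.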

Additional observations from a re-analysis of the deposited data

Results flagged for a closer look

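Of 27 groups of 4 series B arrays (9 genes in 3 groups), 1 had an array apart from the rest by Dixon's ratio, and chance gives about 1 in 20. Oas1a read 8.6 on 5-ALA array 4 on the authors' scale, against 5.3 to 5.6 on the other 5-ALA arrays (Dixon's ratio 0.929 on the fitted scale). Irf7 and Usp18 were also highest on this array within the 5-ALA group (14.2 and 14.5), while Tap1 was lowest there (6.5).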

How the results depend on the processing

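No called gene changed direction under any alternative. For the genotype in series B, 2 genes, Oas1a and Ifit1, were called with arrays scaled to their median, and 1, Psmb8, with the replicate block (limma adjusted p 0.0317); over both series median scaling called 2, Oas1a and Ifit1. Median scaling called 3938 and 4184 of all tested probes in these comparisons, against 543 and 100 as reported. For 5-ALA against AtrxΔE2, where 4 genes were called, 0 were called with consecutive series B arrays averaged in pairs, 1 (Usp18) with these pairs as a random block, 1 (Psmb8) at an adjusted p under 0.01, 1 (Psmb8) with the blank level as a covariate and 1 (Psmb8) without 5-ALA arrays 1 and 2; leaving out 1 array gave 2 to 5. For 5-ALA against wild type, where 7 were called, 0 were called with averaged pairs, 0 with the blank level and 3 (B2m, Psmb8 and Irf7) without 5-ALA arrays 1 and 2; leaving out 1 array gave 6 to 7. The cause of these changes was not tested, but averaging leaves 2 values per series B group. Over all tested probes the treatment comparison gave 1522 calls as reported, 23 with averaged pairs (2644 at an unadjusted p under 0.05), 371 with pairs as a random block, 973 with median scaling, 608 with the blank level and 333 at 0.01. Against wild type 2335 were called, 15 with averaged pairs, 699 with the random block, 2 with the blank level, and 569 at 0.01. The share of lower calls against wild type was 47.0% as reported, 83.3% on the authors' values plus 1 and 26.7% with median scaling; for the genotype in series B it was 49.5%, 84.8% and 67.4%. The replicate block changed no other call of the 9 genes. No paired analysis was possible for 5-ALA because its arrays share fewer than 2 replicate numbers with the series B groups. Signal over the blank spots limits what Ifit1, Tap1 and Oas1a can show.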
